A study of Mus musculus with 2 samples.

Results

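Villus tip enterocytes are the absorptive cells at the end of the small intestinal villus, and here they were the barcodes (droplets read as cells) with at least 5 UMIs summed over Nt5e, Ada, Slc28a2 and Clca4a. A UMI, or unique molecular identifier, stands for 1 captured RNA molecule. A barcode was considered from 500 UMIs, 300 genes and 1000 peak counts upwards, a peak being a stretch of open chromatin. It found 1077 tip barcodes among 9872 passing barcodes, or 10.9% (95% exact binomial interval 10.3 to 11.5%), of 12363 barcodes in all. They were set against 1873 other enterocytes, which had at least 4 UMIs summed over Xdh, Mme, Slc5a12 and Tmprss15 and a tip sum under 5, and against all 8795 other passing barcodes. Of the tip barcodes, 286 also reached the enterocyte sum and 791 did not.

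All cells came from the small intestine of 1 TrnA-mutant mouse, 55 weeks old, with a mutation load of 73%. TrnA encodes the alanine tRNA of mitochondrial DNA (mtDNA). Tip barcodes and both sets they were compared with carry that mutation, and no control animal was analysed here. The series concerns acute colitis, and its labels do not say whether this animal had it. Intestinal epithelial cells were sorted by flow cytometry after staining for CD326 and for blood and vessel antigens, and RNA and open chromatin were read in the same droplets, so both libraries share 1 list of barcodes. The gates are not given in the labels, so the share of tip barcodes is that of the sorted suspension.

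Enterocytes are made in the crypt, move up the villus and are shed at its tip, and their gene programs turn over along the way. In mouse villi, sugar and amino acid uptake is known to peak at middle heights, while lipoprotein assembly, cell adhesion and purine handling are known for the upper villus and tip. The 4 genes of the rule belong to this tip program. Nt5e (CD73) releases adenosine from AMP at the cell surface, Ada deaminates adenosine to inosine, Slc28a2 takes up purine nucleosides with sodium, and Clca4a is a member of the chloride channel accessory family.

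Tip barcodes had a median of 6168 UMIs, of which 1117 were encoded in the nucleus, and 9389 counts in peaks, against 7642, 1342 and 13321 in other enterocytes. The mtDNA genes gave a median of 76.5% of the UMIs of a tip barcode and 75.7% of those of another enterocyte. Levels are therefore given as UMIs per 10000 nuclear-encoded UMIs, summed over a class, and ratios are log2 of tip barcodes over the class they are set against. With 1 animal there are no replicates and no test was possible. All intervals are 95% intervals that cover counting error only. A gene or peak is called higher or lower if the classes differed by at least 1.5-fold with the whole interval on that side of no change. Reads of close relatives (Clca4a with Clca4b, the H2, Cyp2c, Cyp3a, Ly6 and Defa families) may have been split between genes, so their values are uncertain.

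The genes that chose the barcodes are given as a description. Clca4a had 43.3 UMIs per 10000 in tip barcodes, against 0.999 in other enterocytes, and gave 50.2% of the UMIs of the tip sum. Slc28a2 had 21.3 in tip barcodes and 0.330 in other enterocytes. Ada had 12.1 in tip barcodes and 0.867 in other enterocytes. Nt5e had 9.53 in tip barcodes and 0.164 in other enterocytes. UMIs of all 4 were present in 390 tip barcodes, of 3 in 346, of 2 in 238 and of 1 in 103. The tip sum ran from 5 to 274 with a median of 11. At the threshold, 152 barcodes stood at 5 UMIs and were taken, and 167 stood at 4 and were not.

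**Figure D1:**
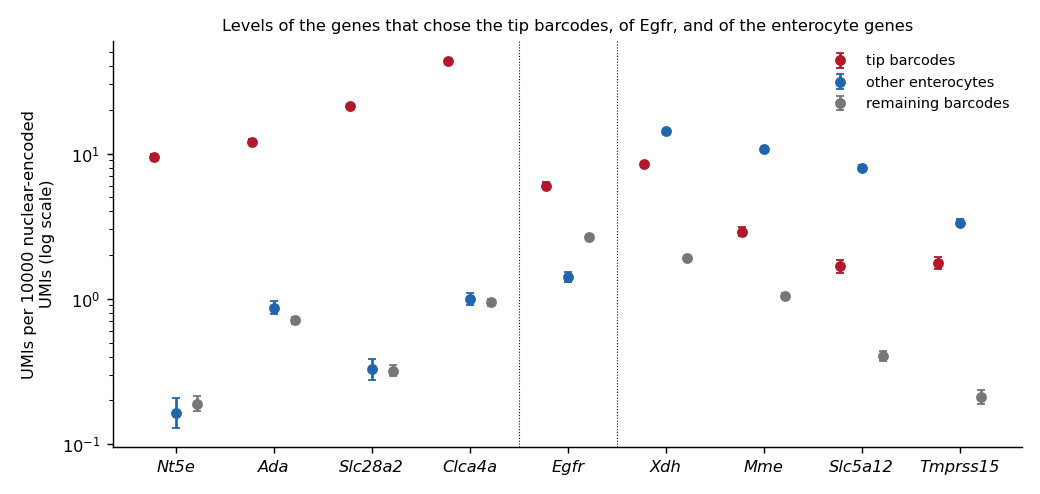
UMIs per 10000 nuclear-encoded UMIs (log scale) of the 4 tip genes, Egfr and the 4 enterocyte genes in tip barcodes, other enterocytes and the remaining 6922 barcodes, with 95% counting intervals. Egfr, which no rule used, stood at 5.998 in tip barcodes, against 1.41 in other enterocytes.

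Egfr, the epidermal growth factor receptor and a tip marker that the rule did not use, was higher in tip barcodes. It had 5.998 UMIs per 10000 there (5.69 to 6.32), 1.41 (1.30 to 1.53) in other enterocytes and 2.67 (2.59 to 2.76) in the remaining 6922 barcodes, which include crypt cells. The log2 ratio to other enterocytes was 2.09 (1.95 to 2.23). Of a list of 13 upper villus genes, all measured, 8 were called higher in tip barcodes and 0 lower, where 6.9% of the 11880 nuclear genes with at least 20 UMIs were higher and 7.85% were lower. The list's median log2 ratio was 0.87, against -0.06 over all these genes. Among the members, Apoa4, a lipoprotein of chylomicrons, had 32.4 UMIs per 10000 in tip barcodes and 14.0 in other enterocytes. Enpp3, a nucleotide hydrolase of the cell surface, had 17.5 in tip barcodes and 8.08 in other enterocytes. Cdh1 (E-cadherin) had 9.14 in tip barcodes and 4.54 in other enterocytes. Klf4, Krt20, Apob and Creb3l3 were called higher too, and members that were not called included Npc1l1 (log2 0.18), Apobec1 (0.40), Fos (0.51) and Junb (0.51). The lower villus list went the other way, with 1 of 13 measured genes higher, 4 lower and a median of -0.41. Its lower members were the Reg family lectins Reg1 (-0.86) and Reg3b (-0.65), the inflammasome sensor Nlrp6 (-0.64) and the cytokine Il18 (-1.08). The highest ratio in the list was 0.61, and 8 members were not called. Against all other passing barcodes 2 of the 13 were higher and 3 lower, with a median of -0.02, where 6.81% of 14930 genes were higher and 17% lower. These genes were measured in the cells that were selected, so the lists check the label and are no separate evidence. Of 11 enterocyte markers 3 were higher and 5 lower than in other enterocytes, with a median of -0.25. They summed to 158.3 UMIs per 10000 in tip barcodes, 185.4 in other enterocytes and 50.5 in the remaining barcodes. Against all other passing barcodes 6 were higher and 0 lower. Set against other enterocytes, the upper and lower villus lists did not go against the label, while enterocyte markers were more often lower than higher.

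Across all nuclear genes with at least 50 UMIs, 676 of 9784 (6.91%) were higher in tip barcodes than in other enterocytes and 836 (8.54%) were lower. The 12 highest, ranked by the bound of the interval nearest to no change, included the receptor Gprc5a with 1.07 UMIs per 10000 in tip barcodes and 0.0205 in other enterocytes (log2 5.70, 4.76 to 6.85). Ly6m, of the Ly6 family of surface proteins, had 5.69 in tip barcodes and 0.184 in other enterocytes (4.95, 4.62 to 5.29). Slc23a4, known in rat as a nucleobase transporter, had 5.95 in tip barcodes and 0.628 in other enterocytes (3.24, 3.06 to 3.44). Cldn4, a claudin of tight junctions, had 1.39 in tip barcodes and 0.0956 in other enterocytes (3.86, 3.40 to 4.36). The transcriptional repressor Prdm1 (Blimp1) had 0.956 in tip barcodes and 0.0910 in other enterocytes (3.39, 2.90 to 3.92). The others were the ubiquitin ligase Marchf3 (3.74), the sialyltransferase St3gal1 (3.77), the TGF-beta feedback inhibitor Pmepa1 (3.14), the tuft cell kinase Dclk1 (3.13), whose UMIs sat in few droplets, and 3 genes without a known role, Gm47507 (5.96), 1600022D10Rik (5.66) and 5430437J10Rik (4.01).

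Most of the 12 lowest genes encode carriers and enzymes of nutrient and drug handling. The disaccharidases Sis and Mgam had 21.8 and 14.9 UMIs per 10000 in tip barcodes, against 65.7 and 42.9 in other enterocytes. Slc2a2 (GLUT2), the basolateral sugar carrier, had 0.734 in tip barcodes and 2.95 in other enterocytes (log2 -2.00, -2.24 to -1.77). Its relative Slc2a7 stood at -2.48 and Slc5a4b, of the sodium-glucose cotransporter family, at -2.05. Cyp2c66 (-2.23), Cyp3a25 (-1.83), the sulfotransferase Sult6b2 (-2.82) and the alcohol dehydrogenase Adh4 (-2.61) were lower, as was Hnf4aos (-1.78), an antisense partner of Hnf4a. How strand was counted is not given in the sources used here, so reads of these partners may be mixed. Slc28a1, the pyrimidine-preferring relative of Slc28a2, had 0.389 in tip barcodes and 1.33 in other enterocytes (-1.78, -2.11 to -1.46). The hormone gene Sst was lower too (-2.20), with 21 UMIs in tip barcodes and 181 in other enterocytes. Without barcodes that held 5 or more UMIs of tuft or enteroendocrine markers its ratio was 0.23. Sst is itself among those markers, so barcodes rich in it were left out by their own Sst UMIs.

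Of 36 measured genes of junctions and adhesion, 17 were higher in tip barcodes, 0 were lower and 19 were not called, with a median log2 ratio of 0.53, and their sum was 133.6 UMIs per 10000 in tip barcodes and 84.0 in other enterocytes. Besides Cldn4, the laminin chain Lama3 had 9.79 in tip barcodes and 1.95 in other enterocytes, and the chain Lamb3 had a log2 ratio of 2.04. Itgb6 and Itgav, which pair as an integrin that can activate TGF-beta, had ratios of 2.47 and 1.10. The desmosome genes Dsp (1.02), Pkp3 (0.79), Dsg2 (0.77), Jup (0.72) and Dsc2 (0.67) and the tight junction genes Ocln (0.91) and Cldn7 (0.65) were also higher. Cldn15 (-0.19), Tjp3 (-0.14), Cgn (0.10) and the basal integrin chains Itgb4 (0.12) and Itga3 (-0.24) were not called.

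Of 24 measured genes for sugar and amino acid uptake, 14 were lower in tip barcodes and 1 was higher, with a median log2 ratio of -1.31. Slc5a1 (SGLT1), the main apical glucose carrier, had 6.29 UMIs per 10000 in tip barcodes and 16.1 in other enterocytes. Slc16a10, an aromatic amino acid carrier, had 1.46 in tip barcodes and 4.14 in other enterocytes. Not every carrier followed, since the peptide carrier Slc15a1 (0.06) and the neutral amino acid carrier Slc6a19 (-0.09) had ratios close to 0, and Slc1a5 (0.91) was the member called higher. Of 30 brush border genes 13 were lower, 1 was higher and 16 were not called, with a median of -0.34. The lower members included digestive enzymes (among them Lct at -1.50, Dpp4 at -1.22, Ace at -1.37 and Anpep at -0.89), Cubn (-1.61), Pdzk1 (-1.10) and Slc9a3 (-1.15). The actin bundler Eps8 was called higher (0.75), and the structural genes Vil1 (-0.25), Myo1a (-0.41), Cdhr2 (0.35) and Ush1c (-0.10) were not called.

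How much lower these genes were depended on how both classes were chosen, and the rule for other enterocytes itself used absorptive genes. With the tip class limited to the 286 barcodes that also passed the enterocyte rule, the medians were -0.71 for sugar and amino acid carriers and -0.13 for brush border genes. Against 4091 barcodes chosen by at least 10 UMIs of an enterocyte marker list, they were -0.71 and -0.03. That marker list holds Slc5a1, Sis and Lct, which are also members of the lists measured here, so this class too was chosen in part on them. Against all other passing barcodes, which include crypt and secretory cells, 14 brush border genes were higher in tip barcodes and 0 lower, with a median of 0.53.

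Lipid genes were called in both directions. Of 32 measured members of the chylomicron and lipid list, 6 were higher and 10 lower in tip barcodes, with a median of -0.26, while their sum was 175.9 UMIs per 10000 in tip barcodes and 138.5 in other enterocytes. Median and sum thus differ in direction. Higher were the apolipoproteins Apob (0.92), Apoa1 (0.65), Apoc3 (0.63) and Apoa4 (1.21), the transcription factor Creb3l3 (0.59) and the lipid droplet gene Cidec (1.14). Lower were Mttp (-0.83), which loads lipid onto Apob, the fatty acid carriers Fabp1 (-1.01) and Cd36 (-1.32), the acyl-CoA synthetase Acsl5 (-1.04), the sterol exporters Abca1 (-1.09), Abcg5 (-0.74) and Abcg8 (-0.61), Mogat2 (-0.89), Soat2 (-0.70) and Plin2 (-0.75). Against the 4091 barcodes chosen by enterocyte markers the median was 0.10, so the sign of the list median depended on the class it was set against. Apoa4 and Fabp1 are in both the marker list and the lipid list, so that class was chosen in part on genes measured here.

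**Figure D2:**
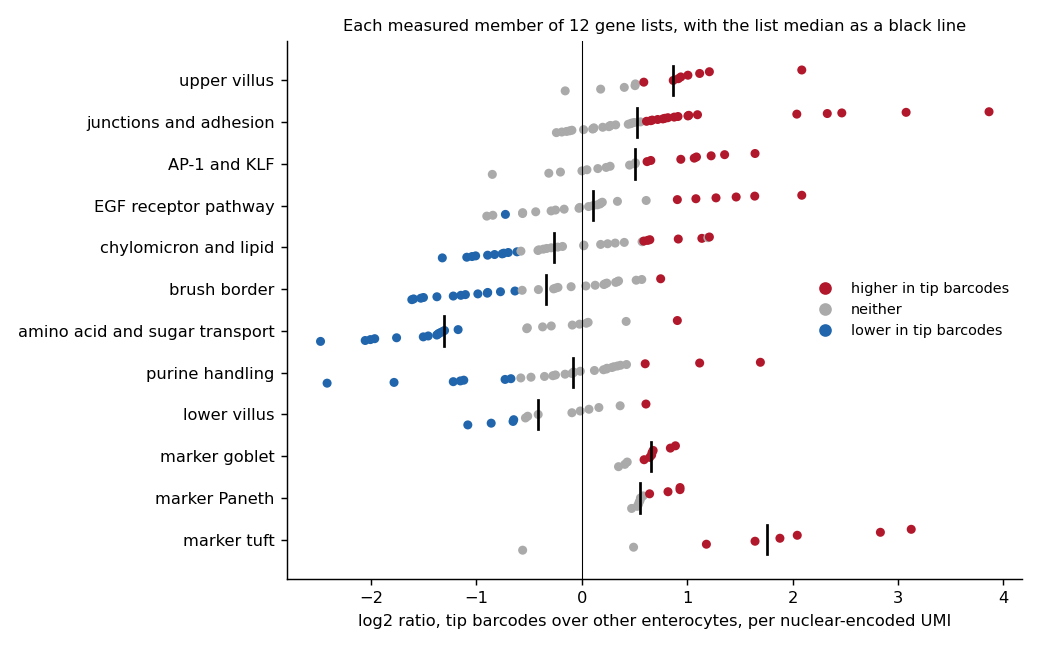
Log2 ratio of tip barcodes over other enterocytes for each measured member of 12 gene lists, leaving out the genes of both rules. The black line is the list median (0.53 for junctions and adhesion, -1.31 for amino acid and sugar transport), and colour gives the call.

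Purine handling did not move as 1 group around the genes of the rule. Of 29 measured members outside the rule, 3 were higher, 7 lower and the median was -0.08. Nt5c2, a cytosolic nucleotidase, had 1.64 UMIs per 10000 in tip barcodes and 0.508 in other enterocytes (log2 1.70, 1.45 to 1.94). Enpp3 (1.12) and Entpd8 (0.60), which hydrolyse nucleotides outside the cell, were the other higher members. Gda, the guanine deaminase, had 8.18 in tip barcodes and 18.2 in other enterocytes (-1.15, -1.22 to -1.08). Adora2b, an adenosine receptor, stood at -2.41, and the urate carrier Slc2a9 at -1.12. The purine salvage genes Hprt (0.30) and Aprt (-0.27), the nucleoside phosphorylase Pnp (0.12) and the adenosine kinase Adk (-0.35) were not called.

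Several ligands and feedback inhibitors of growth factor signalling were higher besides Egfr. In the EGF receptor list 6 of 25 measured members were higher and 1 lower, with a median of 0.11. The ligands Hbegf (1.64), Nrg1 (1.27) and Btc (0.91) and the feedback inhibitors Dusp6 (1.47) and Errfi1 (1.08) were the other higher members, and the inhibitor Lrig3 (-0.72) was lower. The receptors Erbb2 (-0.02) and Erbb3 (0.18) were not called. Of 19 measured AP-1 and KLF factors 8 were higher and 0 lower, with a median of 0.51. Atf3 had 1.15 UMIs per 10000 in tip barcodes and 0.369 in other enterocytes. Jun had 2.73 in tip barcodes and 1.07 in other enterocytes, and Fosl2 had 2.38 in tip barcodes and 1.02 in other enterocytes. Klf6 (1.09), Maff (1.07), Klf4 (0.94), Mafk (0.66) and Fosb (0.62) completed the set.

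Other transcription factors of the villus were more often lower than higher, with 10 lower and 3 higher of 36 measured and a median of -0.32. Prdm1, Arid3a (1.67) and Creb3l3 were the higher members. Ppargc1a, a coactivator of mitochondrial genes, had 1.57 UMIs per 10000 in tip barcodes and 4.35 in other enterocytes (-1.47, -1.63 to -1.31). Maf (-0.85), Hnf4g (-0.65), Nr1i3 (-1.33), Nr1i2 (-0.64), Ppara (-0.63) and Vdr (-0.63) were lower too. Over all genes 6.9% were higher and 7.85% lower, and beside these shares nothing is read from the small counts of the next 2 lists. In the BMP and TGF-beta list 3 of 25 were higher and 0 lower, with Bmp8b (3.10, from 32 UMIs in tip barcodes and 7 in other enterocytes), Smad7 (0.73) and Bmp2 (0.59). The apoptosis list had 4 of 34 higher, with Gsdme (1.35), Trp53inp1 (1.32), Mcl1 (0.71) and Tnfrsf1a (0.65), and 5 lower, among them Fas (-1.11), Tnfsf10 (-0.79), Casp6 (-0.78) and Casp9 (-0.76). In the antigen presentation list 2 of 22 were higher, near the share over all genes, and 7 were lower, with the checkpoint ligand Cd274 at 2.01 and the class II regulator Ciita at -1.56.

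The mtDNA-encoded mRNAs, which the mutated tRNA helps to translate, took 13.5% of UMIs in tip barcodes, 15.3% in other enterocytes and 8.25% in the remaining barcodes. All 13 were measured and 0 were called, with a median log2 ratio of -0.26 and a lowest of -0.41 for mt-Nd1. The integrated stress response list had 3 of 20 members higher (Atf3, Ppp1r15a at 1.03 and Asns at 0.94) and 0 lower, with a median of 0.31. Asns rested on 47 UMIs in tip barcodes and 46 in other enterocytes, and Ppp1r15a on 25 UMIs in tip barcodes and 23 in other enterocytes. None of these values bears on the effect of the mutation, which both classes carry.

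Some markers of secretory lineages were also higher in tip barcodes than in other enterocytes. The 10 goblet markers summed to 198.4 UMIs per 10000 in tip barcodes, 120.9 in other enterocytes and 175.2 in the remaining barcodes, with 7 called higher and 0 lower and Zg16 at a log2 ratio of 0.89. The 11 Paneth markers summed to 116.1 in tip barcodes, 75.6 in other enterocytes and 160.6 in the remaining barcodes, with 4 called higher and 0 lower. Barcodes with at least 10 UMIs of secretory markers made up 94.0% of tip barcodes, 93.5% of other enterocytes and 89.2% of the remaining barcodes, so these RNAs were present in nearly every droplet. Open chromatin within 25 kb of a gene start was also higher in tip barcodes for 2 of 10 goblet and 2 of 5 measured Paneth markers. It was lower for 0 of either, and 0.936% of 9718 genes were higher. Of 13 enteroendocrine markers 2 were higher and 1 was lower in chromatin. Of 7 stem and 6 cycling markers 0 were called, with sums of 15.5 and 7.08 in tip barcodes, against 12.7 and 5.77 in other enterocytes. Lymphocyte markers summed to 0.201 in tip barcodes and 0.152 in other enterocytes, and stroma and blood markers to 0.0470 in tip barcodes and 0.0478 in other enterocytes. The part of secretory RNA in the results was not tested. Among the 65 tip barcodes and 122 other enterocytes with under 10 secretory UMIs, the log2 ratio of Egfr was 4.18 and the median of the junction list 0.88.

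Most tuft UMIs of tip barcodes sat in few droplets, and enteroendocrine UMIs were spread more thinly. Tuft markers had 457 UMIs in tip barcodes and 217 in other enterocytes, and 10 tip barcodes held 401 of their class's UMIs. Per 10000 they summed to 1.95 in tip barcodes, 0.494 in other enterocytes and 2.30 in the remaining barcodes. Of 8 measured tuft markers 6 were called higher and 0 lower, with a median of 1.76. Enteroendocrine markers summed to 4.87 in tip barcodes, 3.15 in other enterocytes and 7.30 in the remaining barcodes. Of 12 measured 7 were called higher and 1 lower, with a median of 1.06. At least 5 enteroendocrine UMIs were found in 22 tip barcodes and 14 other enterocytes, which held 549 of 1140 such UMIs in tip barcodes and 449 of 1385 in other enterocytes. Barcodes with 5 or more of either kind, 31 of them tip barcodes, were then left out of both classes. The ratio of the tuft kinase Dclk1 was then -0.49, while Egfr stood at 2.16 and the junction list at 0.64. Dclk1 is itself among the tuft markers, so barcodes rich in it were left out by their own Dclk1 UMIs. The fall of its ratio is thus in part built into this setting. In the 1046 tip barcodes and 1856 other enterocytes that were left, Dclk1 was not higher in tip barcodes.

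Other enterocytes and tip barcodes were together placed in 6 bins of the tip sum, and levels along them are given as a description. Egfr had 1.21, 1.38, 3.05, 2.92, 3.89 and 8.48 UMIs per 10000 at tip sums of 0, 1 to 2, 3 to 4, 5 to 7, 8 to 12 and 13 or more. Ly6m had 0.123, 0.239, 0.389, 1.57, 2.82 and 9.04 in the same bins, and Cldn4 had 0.0716, 0.116, 0.180, 0.496, 0.804 and 2.10. The highest bin stood above all others for these 3 genes, with intervals that did not overlap. Sis ran the other way with 72.2, 60.7, 40.3, 28.2, 16.6 and 21.0, and its lowest level was in the bin of 8 to 12. Slc2a2 had 3.32, 2.48, 2.24, 0.718, 0.786 and 0.718, so it was low in all 3 tip bins without an order among them. Entry to the first 3 bins required 4 enterocyte UMIs and entry to the last 3 did not, and the median of nuclear-encoded UMIs ran from 926.5 in the bin of 8 to 12 up to 2023.5 in the bin of 3 to 4.

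**Figure D3:**
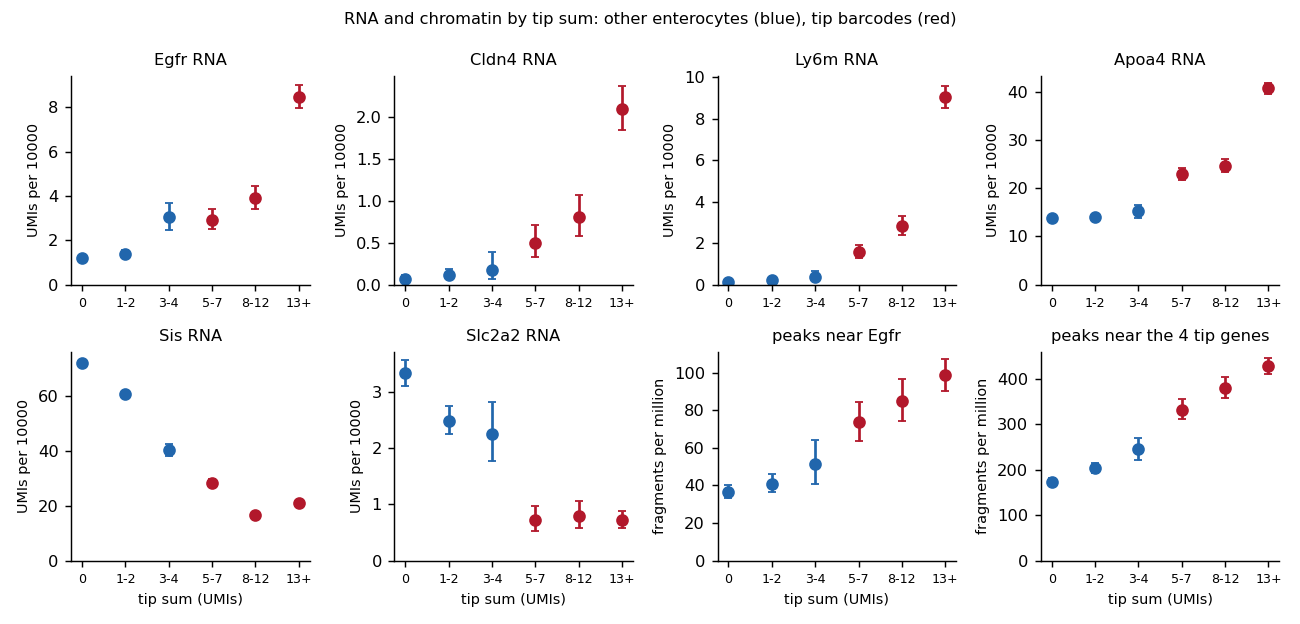
RNA levels of 6 genes (UMIs per 10000 nuclear-encoded UMIs) and chromatin near Egfr and the 4 tip genes (fragments per 1000000) in 6 bins of the tip sum, with 95% counting intervals. Blue bins are other enterocytes and red bins are tip barcodes. Egfr RNA stood at 8.48 and chromatin near the tip genes at 427 in the highest bin.

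Open chromatin, which the rule did not use, differed near the 4 tip genes and near some of the other genes named above. Peak values were converted to fragments and scaled per 1000000 fragments of a class. Over all 90103 peaks with at least 50 fragments, 9372 (10.4%) were higher in tip barcodes and 6677 (7.41%) lower. Differences lay mainly away from promoters. Within 2 kb of a protein-coding gene start 3.16% of 17965 peaks were higher and 3.07% lower, and among the 72138 peaks farther away 12.2% were higher and 8.49% lower. Fragments in peaks near the 4 tip genes stood at 173, 203, 245, 332, 381 and 427 per 1000000 along the 6 bins of the tip sum.

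Each of the 4 tip genes had a more open peak at or close to a gene start (mm10, the build of the files). Nt5e had a peak at chr9:88327177-88328072, centred 0.43 kb after its start, with 95 fragments in tip barcodes and 75 in other enterocytes (log2 1.23, 0.78 to 1.68). Its upstream peaks at chr9:88325803-88326714 and chr9:88324326-88325217 differed more, with 75 and 108 fragments in tip barcodes, against 18 and 24 in other enterocytes (2.95 and 3.06). The peak over the start of Ada, chr2:163749745-163750609, had 213 fragments in tip barcodes and 200 in other enterocytes (0.98, 0.69 to 1.26). The upstream peak of Ada at chr2:163751537-163752417 had 195 fragments in tip barcodes and 106 in other enterocytes (1.77). The start of Clca4a lay in chr3:144974620-144975505, with 106 fragments in tip barcodes and 44 in other enterocytes (2.16, 1.64 to 2.70). Slc28a2 has more than 1 start in the gene table, and the peak at chr2:122438794-122439729, 1502 bases before the last of them, had 225 fragments in tip barcodes and 51 in other enterocytes (3.03, 2.58 to 3.497). Within 40 kb of a start, 3 of 3 tested peaks were higher at Nt5e, 8 of 13 at Ada, 8 of 9 at Slc28a2 and 6 of 12 at Clca4a, and 0 were lower at any of them. Near the related gene Clca4b 1 of 8 was higher and 1 lower, and the higher one, chr3:144960192-144960935, was also counted at Clca4a. Some peaks counted at Clca4a also lay within 40 kb of Clca1, so the windows of these relatives are not separate.

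At Egfr the difference lay outside the promoter. The peak over its start, chr11:16751860-16752680, had 187 fragments in tip barcodes and 334 in other enterocytes, or 17.7 and 17.1 per 1000000 (log2 0.05, -0.22 to 0.31). Upstream, the peak at chr11:16716433-16717327, 35.3 kb before the start, had 124 fragments in tip barcodes and 33 in other enterocytes (2.80, 2.23 to 3.40). The peak at chr11:16735103-16736020, 16.6 kb before it, had 106 fragments in tip barcodes and 52 in other enterocytes (1.91, 1.42 to 2.42). Of 9 tested peaks within 40 kb, 7 were higher and 0 lower. No link of these peaks to Egfr was measured beyond distance. At Slc2a2, 9 of 15 tested peaks were lower and 0 higher. Its peak at chr3:28696090-28696630, 1.54 kb before the start, had 82 fragments in tip barcodes and 502 in other enterocytes (-1.73, -2.08 to -1.39), and was among the 6 lowest peaks of all. The highest peak of all, ranked by the bound nearest no change, lay 4.12 kb before Ly6m, chr15:74877208-74877970, with 120 fragments in tip barcodes and 11 in other enterocytes (4.33, 3.44 to 5.38).

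**Figure D4:**
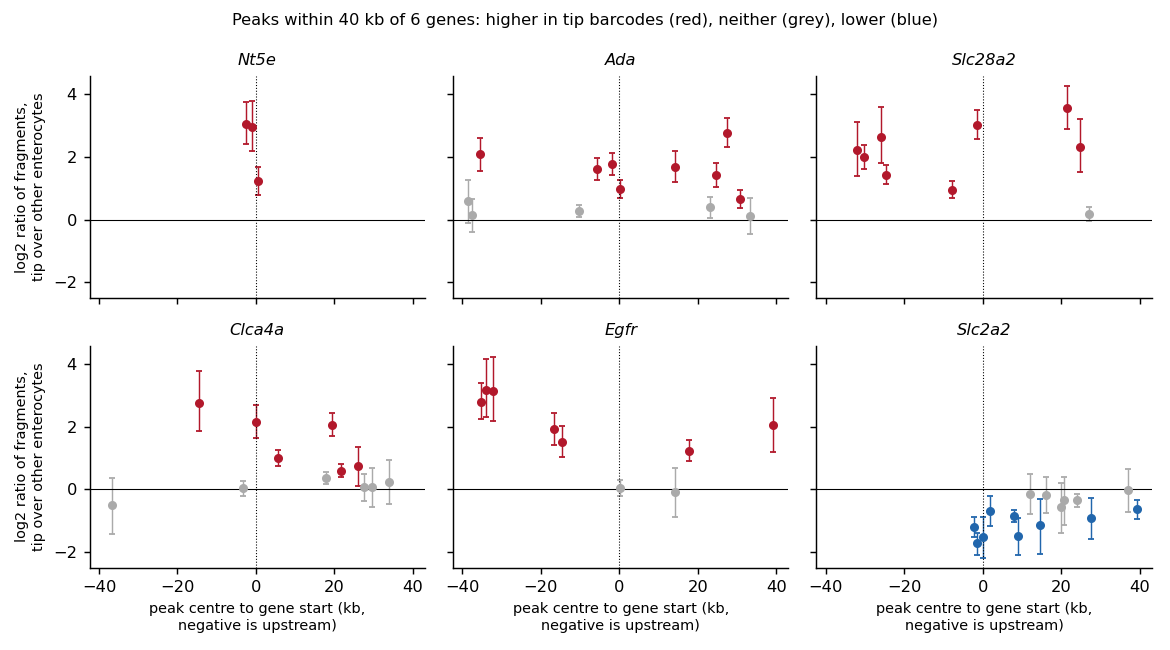
Log2 ratio of fragments, tip barcodes over other enterocytes, for each peak with at least 50 fragments within 40 kb of 6 genes, by distance of the peak centre from the nearer of the first and last gene start, with 95% counting intervals. Peaks over or within 2 kb of a start of the 4 tip genes were higher, the one at the start of Egfr was not called (0.05), and those around the start of Slc2a2 were lower.

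The 250 bases before the start are shown for 4 genes whose start peaks differ in kind, from RefSeq on GRCm38.p6. These are Nt5e and Cldn4, with higher RNA and a more open start, Egfr, with higher RNA and no call at its start, and Slc2a2, with lower RNA and a less open start. Capitals mark matches on either strand to any of 5 motifs, which were searched as short exact words. The word TGANTCA stands for factors of the AP-1 family such as Jun and Fos. Factors of the KLF and SP families are known to bind the word GGGCGG in promoters of many genes. The GATA factors of the gut are represented by the word AGATAA. For the enterocyte factor HNF4 the longer word CAAAGTCCA was used. The box known from many inducible promoters was searched as TATAAA.
Nt5e, chr9:88327359-88327608, plus strand: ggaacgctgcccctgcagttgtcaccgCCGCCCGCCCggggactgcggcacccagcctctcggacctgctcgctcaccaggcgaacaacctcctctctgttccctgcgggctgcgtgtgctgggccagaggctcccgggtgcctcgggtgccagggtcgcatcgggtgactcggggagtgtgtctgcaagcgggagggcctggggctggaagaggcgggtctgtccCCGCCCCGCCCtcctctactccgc
Cldn4, chr5:134946935-134947184, minus strand: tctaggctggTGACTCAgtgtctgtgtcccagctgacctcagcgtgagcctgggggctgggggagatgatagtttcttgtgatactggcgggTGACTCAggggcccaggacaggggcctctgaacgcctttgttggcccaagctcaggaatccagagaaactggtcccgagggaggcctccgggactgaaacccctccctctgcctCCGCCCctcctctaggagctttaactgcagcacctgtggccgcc
Egfr, chr11:16751953-16752202, plus strand: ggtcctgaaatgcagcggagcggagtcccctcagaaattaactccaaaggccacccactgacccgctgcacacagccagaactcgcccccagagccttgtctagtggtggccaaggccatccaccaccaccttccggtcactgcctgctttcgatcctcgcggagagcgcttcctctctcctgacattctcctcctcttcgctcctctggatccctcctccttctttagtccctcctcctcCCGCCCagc
Slc2a2, chr3:28697653-28697902, plus strand: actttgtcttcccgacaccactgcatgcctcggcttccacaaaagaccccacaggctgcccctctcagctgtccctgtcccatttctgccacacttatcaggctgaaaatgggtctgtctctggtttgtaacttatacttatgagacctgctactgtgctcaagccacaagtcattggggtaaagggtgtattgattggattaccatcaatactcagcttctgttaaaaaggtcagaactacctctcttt

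The Cldn4 window held 2 AP-1 matches, 240 and 158 bases before the start, and 1 match to GGGCGG. It lay in the peak chr5:134946602-134947473, with 249 fragments in tip barcodes and 123 in other enterocytes (log2 1.90, 1.59 to 2.23). The Nt5e window held 4 matches to GGGCGG, in overlapping pairs, the Egfr window held 1 and the Slc2a2 window held no match to any of the 5 motifs. The RefSeq window of Slc28a2 overlapped no peak, that of Ada lay in its start peak, and Clca4a has no entry. An AP-1 match was found in 6.75% of all 32851 windows, in 8.25% of 691 windows of genes with higher RNA in tip barcodes, in 5.91% of 829 windows of genes with lower RNA and in 4.23% of 8324 windows of genes with neither call. GGGCGG was found in 32.7% of all windows, 55.4% of those of higher genes, 48.5% of those of lower genes and 59.1% of those with neither call. HNF4 matches were few, in 2 windows of higher genes (0.289%), 10 of lower genes (1.21%) and 0.384% of all windows. GATA was found in 9.99% and TATA in 12.4% of all windows. A match is a description of the letters and not of binding.

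Within 2 kb, chromatin at gene starts and RNA were called in the same direction in all but 1 of the genes called in both. Of 615 genes with higher RNA in tip barcodes and at least 50 fragments within 2 kb of a start, 36 (5.85%) had more fragments there and 0 had fewer, where 0.733% of 9412 genes had more and 0.85% had fewer. Among 789 genes with lower RNA, 60 (7.6%) had fewer fragments and 1 (0.127%) had more. Within 25 kb, 56 of 658 genes with higher RNA (8.51%) had more fragments and 1 had fewer, against backgrounds of 0.936% and 0.422%. Most genes with an RNA call thus had no chromatin call. Within 25 kb, few members of the gene lists were called in chromatin. Higher were 1 of 13 upper villus, 2 of 37 junction, 0 of 20 AP-1 and KLF and 0 of 41 purine handling genes. In these 4 lists 0 were lower. Lower were 2 of 30 brush border genes and 2 of 25 sugar and amino acid carriers, with 0 higher in either list. Examples with both were Ly6m (2.90 within 2 kb), Muc3 (1.99), Cldn4 (1.90), Gprc5a (0.74) and Lama3 (0.68) on the higher side, and Lct (-1.15), Mgam (-0.90) and Sis (-0.82) on the lower side. Prdm1 (0.34), Slc23a4 (0.54) and Apoa4 (0.16) were higher in RNA and were not called in chromatin within 2 kb.

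**Figure D5:**
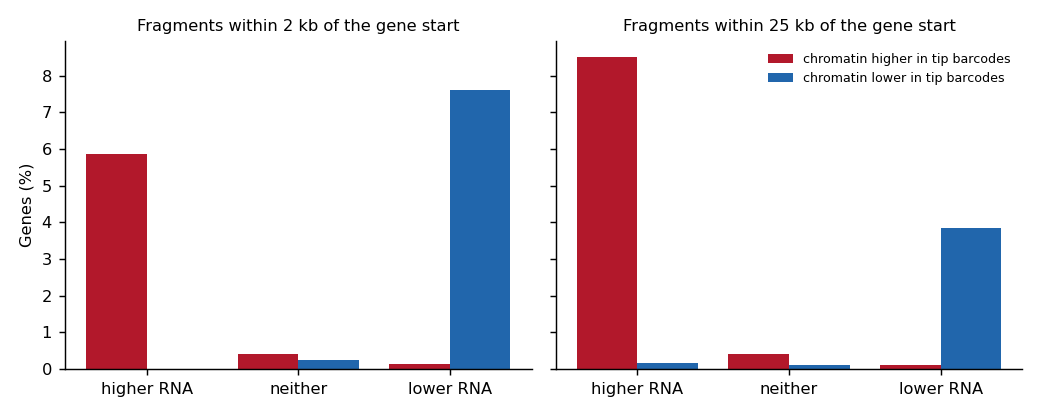
Percent of genes with more or fewer fragments near the gene start in tip barcodes than in other enterocytes, for genes with higher, neither and lower RNA, within 2 kb (left) and 25 kb (right). More fragments were seen for 5.85% of higher genes within 2 kb and fewer for 7.6% of lower genes.

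Set against all 8795 other passing barcodes, 940 of 12785 nuclear genes (7.35%) were higher in tip barcodes and 2520 (19.7%) lower. This split depended on the scale. The median share of mtDNA-encoded UMIs was 76.5% in tip barcodes and 62.8% in all other barcodes. Counting per UMI of all kinds shifts every log2 ratio by -0.29 and gave 554 higher and 5296 lower genes, and scaling to the median gene gave 1648 higher and 915 lower. On the nuclear-encoded scale 12 of 13 upper villus genes, 21 of 37 junction genes and 17 of 32 lipid genes were higher than in all other barcodes, while 6 of 7 stem cell markers and 4 of 6 cycling markers were lower. At that list minimum of 20 UMIs, 6.81% of 14930 genes were higher and 17% lower.

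The tip barcodes were not uniform. In 510 of them Clca4a gave more UMIs than the other 3 tip genes together, and in 567 it did not. Between these groups 182 of 6740 nuclear genes (2.7%) were higher in Clca4a-led barcodes and 178 (2.64%) lower. Slc10a2, the ileal bile acid carrier, had 0.775 UMIs per 10000 in Clca4a-led barcodes and 0.128 in the others (log2 2.59, 1.78 to 3.52). Slc51b, a subunit of the basolateral bile acid exporter, had 0.647 in Clca4a-led barcodes and 0.266 in the others (1.28, 0.66 to 1.95). The ileal bile acid binding gene Fabp6 differed less, with 4.43 in Clca4a-led barcodes and 3.84 in the others (0.21). The distal intestine list summed to 48.4 in Clca4a-led barcodes and 34.96 in the others, and the proximal list to 32.7 in Clca4a-led barcodes and 33.6 in the others. The proximal genes Gata4 (0.09) and Lct (0.04) had ratios close to 0. Onecut2 had 2.19 in Clca4a-led barcodes and 3.07 in the others (-0.49, -0.72 to -0.25). Saa1 (2.27), Tmigd1 (1.60) and the protease Mep1a (1.37) were also higher. Apoa4 had 23.0 in Clca4a-led barcodes and 43.3 in the others, and Egfr had 4.63 in Clca4a-led barcodes and 7.56 in the others (-0.71, -0.86 to -0.55). The enteroendocrine genes Tph1 (-3.25), Nts (-2.31), Chgb (-1.73) and Pcsk1 (-1.60) were lower in Clca4a-led barcodes. Counts were small, with 7 UMIs of Tph1 in Clca4a-led barcodes and 58 in the others, and 17 and 45 of Pcsk1. As 22 tip barcodes held 549 of the 1140 enteroendocrine marker UMIs, a few droplets can weigh on these ratios, which was not tested. The groups also differed in mtDNA-encoded RNA, with a median of 70.6% of UMIs in Clca4a-led barcodes and 80.4% in the others, and in goblet markers, with 167.9 per 10000 in Clca4a-led barcodes and 233.5 in the others. The 4 tip genes summed to 69.3 in Clca4a-led barcodes and 105.5 in the others. The upper villus list, which holds Egfr and Apoa4, summed to 113.4 in Clca4a-led barcodes and 146.4 in the others. Median nuclear-encoded UMIs were 1330.5 in Clca4a-led barcodes and 958 in the others. The part of these differences in the other values was not tested.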

How the data were processed

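RNA and open chromatin were measured in droplets from 1 mouse. The deposited matrix holds raw counts, UMIs per gene and counts per peak, and per the file headers it was made with Cell Ranger ARC 2.0.2 on the mm10 build. Even numbers made up 87.6% of deposited non-zero peak counts, which were taken as cut sites, 2 to a fragment, and divided by 2 with rounding up. UMIs and fragments were summed per class with Python 3.11.15 and pandas 2.3.3. The mtDNA genes were left out of library sizes. Ratios carry exact conditional binomial intervals and levels exact Poisson intervals (scipy 1.17.1), and a class at 0 was set to a floor of 3 counts. These cover counting error only, and no p-value was computed.

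Genes were called with at least 50 UMIs over both classes (20 for list members) and peaks with at least 50 fragments. Named genes were the 12 highest and 12 lowest by the interval bound nearest no change, Egfr, and in each list the 4 members with the largest such bound, apart from items not reported here. Further list members are named to complete a list's calls, and were chosen with their values seen. Members and lists were chosen with earlier results of these data known. Distances run from a peak's centre to the nearer of a gene's first and last start in the deposited gene table. Scrublet (scanpy 1.11.5) marked 0 of 9872 barcodes, so it has not worked and doublets remain. The highest doublet scores, left out in an alternative, were held by 854 of the 9872 barcodes. Among these were 175 tip barcodes, or 16.2% of that class, and 263 other enterocytes, or 14.0% of theirs. High scores were thus more frequent in both classes than among all passing barcodes. The part of doublets in the higher secretory, tuft and enteroendocrine markers was not tested. Calling was tested on simulated data. Alternatives varied the scale, the minimum counts, the rules for both classes, depth, mtDNA share, doublet score, secretory markers and the peak unit.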

Additional observations from a re-analysis of the deposited data

How the results depend on the processing

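Egfr stayed higher in tip barcodes under all alternatives run on RNA, with log2 ratios from 1.54 (comparison class chosen by enterocyte markers) to 4.18 (barcodes of 10 or more secretory UMIs left out). For 24 other named genes, 487 of 492 recomputed values kept their call. The exceptions were Dclk1, at -0.49 without barcodes of 5 or more tuft or enteroendocrine UMIs, and Sst, at 0.23 in that setting, 0.30 with classes chosen on thinned counts, 0.17 against the class chosen by enterocyte markers and uncalled at 1000 to 3000 nuclear-encoded UMIs (-0.71). The tuft and enteroendocrine setting counts UMIs of Dclk1 and Sst themselves.

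Counts of genes higher and lower than in other enterocytes were 362 and 503 with a minimum of 200 UMIs, and 166 and 170 without barcodes of 10 or more secretory UMIs, where 65 tip barcodes were left. The lower count was 1411 without the highest 8% of doublet scores. Against all other barcodes, higher and lower counts were 554 and 5296 per UMI of all kinds, 1648 and 915 scaled to the median gene, and 590 and 820 without barcodes of 10 or more secretory UMIs, and the lower count was 3908 without the highest doublet scores. Peaks higher and lower numbered 5107 and 3333 for tip barcodes that also pass the enterocyte rule, 3703 and 4054 at 1000 to 3000 nuclear-encoded UMIs, 90 and 205 without barcodes of 10 or more secretory UMIs, 16605 and 11002 with deposited counts, and 1996 and 2524 with a minimum of 200 fragments, and 5785 were higher with thinned classes. The median of sugar and amino acid carriers was -1.69 at 1000 to 3000 nuclear-encoded UMIs and -1.61 without the highest doublet scores, that of upper villus genes 1.05 without the highest doublet scores and 1.06 against the class chosen by enterocyte markers, and that of AP-1 and KLF genes 1.07 without barcodes of 10 or more secretory UMIs. Fewer barcodes, features or counts enter some of these settings by construction. For the others the cause was not tested. The enterocyte marker list shares Apoa4 and Krt20 with the upper villus list.

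Leaving out the tip barcode with the most peak counts (623107) moved no count by over 1.5 times. That setting, the class chosen by enterocyte markers and the tuft and enteroendocrine setting were chosen after seeing the data. No paired analysis was possible because there is 1 animal and no group has a second sample. Genes under 50 UMIs (list members under 20) and peaks under 50 fragments were not called at this depth.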
